A study of Homo sapiens with 6 samples.

Results

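Receptor tyrosine kinases are cell-surface proteins that bind a ligand outside the cell and carry a kinase inside it. The 10 receptors described here were chosen by gene symbol, by a rule that names no measured value, with earlier results of these data known: EGFR, ERBB2, MET, AXL, EPHA2, EPHB2, EPHB4, IGF1R, INSR and DDR1. All 10 were among the 17646 genes listed in the deposited tables. They were measured by RNA sequencing in MDA-MB-231, an established human triple negative breast cancer line. Cells were transfected for 48 h, either with siControl, which served as the reference, or with siUSP32, directed at the gene of a ubiquitin-specific protease. There were 3 libraries per group, all from this cell line and none from untransfected cells. The labels do not say whether libraries came from separate cultures, so p-values reflect only how far these libraries scatter, and that scatter may be technical.

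Ligand binding brings such receptors together, the kinases phosphorylate tyrosines of the receptor tails, and adaptor proteins that dock there start the RAS-MAPK and PI3K-AKT pathways. The receptors are made on ribosomes of the endoplasmic reticulum, reach the surface through the Golgi, and are taken up and sorted to lysosomes after ubiquitination. In triple negative breast cancer EGFR, MET, AXL and EPHA2 are well known surface proteins, and AXL is a widely used target gene of YAP, the transcriptional coactivator that the series' title links to USP32. These libraries measured RNA, and neither receptor protein nor its phosphorylation was measured.

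YAP binds DNA through TEAD factors, whose core motif is GGAATG on either strand, so the receptor windows that hold it are shown here. RefSeq's promoter table (GRCh38.p14) gave 20 windows of 250 bases before an annotated start for the 10 receptors, and all 10 symbols matched. The motif was found in 4 of the 20 windows (20.0%), one each for EPHA2, DDR1, EGFR and AXL, and in 11.9% of all 35116 windows of that length. In the sequences below, 5′ to 3′ along the gene's strand, capitals mark the motif.
EPHA2, chr1:16156070-16156319, minus strand: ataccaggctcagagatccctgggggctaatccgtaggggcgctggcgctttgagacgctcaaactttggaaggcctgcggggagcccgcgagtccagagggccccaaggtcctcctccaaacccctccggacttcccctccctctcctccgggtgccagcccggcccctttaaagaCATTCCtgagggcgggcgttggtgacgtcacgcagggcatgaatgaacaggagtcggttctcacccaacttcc
DDR1, chr6:30882684-30882933, plus strand: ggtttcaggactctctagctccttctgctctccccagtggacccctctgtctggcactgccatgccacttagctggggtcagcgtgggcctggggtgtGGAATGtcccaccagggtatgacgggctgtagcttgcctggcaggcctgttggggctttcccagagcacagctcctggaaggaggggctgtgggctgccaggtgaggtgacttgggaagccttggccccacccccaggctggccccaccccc
EGFR, chr7:55109589-55109838, plus strand: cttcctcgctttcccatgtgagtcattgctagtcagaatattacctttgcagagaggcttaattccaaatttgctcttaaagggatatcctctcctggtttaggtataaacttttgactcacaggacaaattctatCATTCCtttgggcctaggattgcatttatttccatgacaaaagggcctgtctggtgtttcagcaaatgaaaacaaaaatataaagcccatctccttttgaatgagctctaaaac
AXL, chr19:41226505-41226754, plus strand: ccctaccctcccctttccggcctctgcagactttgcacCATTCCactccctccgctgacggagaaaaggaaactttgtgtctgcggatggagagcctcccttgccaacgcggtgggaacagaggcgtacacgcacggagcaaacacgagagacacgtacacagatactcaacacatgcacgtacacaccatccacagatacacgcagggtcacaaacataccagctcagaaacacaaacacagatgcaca
The motif began 73 bases before the start in EPHA2, 152 in DDR1, 114 in EGFR and 212 in AXL. The EGFR, AXL and DDR1 windows belong to second, downstream starts. The windows of the first starts of EGFR and AXL (chr7:55018767-55019016 and chr19:41218973-41219222) did not hold these letters, nor did any other of the 8 windows of DDR1. A GC box (GGGCGG, either strand) was in 13 of the 20 windows (65.0%), from 9 of the 10 receptors, and in 42.6% of all windows. The ERBB2 window held none. The AP-1 motif TGANTCA was in 3 receptor windows, from DDR1, EGFR and ERBB2, and in 6.57% of all windows. The EPHA2 window also held the cyclic AMP response element TGACGTCA, which 1.65% of all windows held. All motifs were searched on both strands. No motif in a receptor window overlapped one of another kind, neighbouring GC boxes of INSR overlapped each other, and windows of the same gene can overlap. A match of letters is a description, not a binding site.

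Values are FPKM, fragments scaled by transcript length and by the library's mapped fragments. This allows a rough comparison of levels between genes, though differences between the groups depended on transcript length, as given below. The target of the siRNA was lower in each siUSP32 library, with USP32 at 7.5, 7.48 and 8.32 FPKM in siControl and at 2.0, 1.88 and 2.01 FPKM in siUSP32. FPKM over all genes summed to 686380 to 694830 in siControl and to 855570 to 948640 in siUSP32 libraries, so differences are also given after rescaling to a common sum (TPM). All 5 markers of mesenchymal breast cancer lines were detected, with sums of 1953 to 1976 FPKM in siControl and 2154 to 2193 in siUSP32. They did not move together: the vimentin gene VIM was at 1077 to 1098 and 1628 to 1715 FPKM, and CD44 at 423 to 426 and 131 to 138. AXL, on this list too, is one of the 10 receptors. Of the luminal markers, the estrogen receptor gene ESR1 stayed at or below 0.63 FPKM, GATA3 at or below 1.27 and FOXA1 at or below 2.89 (PGR was not analysed here), while the keratin genes KRT8 and KRT18 were at 2354 FPKM or more in every library. Endothelial markers summed to 1.0 to 1.16 FPKM in siControl and 0.44 to 0.45 in siUSP32 libraries, and fibroblast markers to 1.95 to 2.84 and 0.90 to 1.09. PTPRC, the pan-leukocyte marker, was listed at 0 in 5 libraries, CD3E in 4, and the immune sum of 18.45 to 25.83 came almost wholly from CD68. Their part in the results below was not tested.

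Every one of the 10 receptors was lower in the 3 siUSP32 libraries than in the 3 siControl libraries. Mean FPKM fell by factors that ran from 1.6 for IGF1R to 5.54 for MET among the 9 receptors that reached the minimum mean of 1 FPKM for testing. INSR, at a mean of 0.940 FPKM in siControl and 0.167 in siUSP32, did not reach it. All 9 tested receptors passed the test as lower (limma, Benjamini-Hochberg adjusted p under 0.05 over 12003 genes), where 41.3% of all tested genes were lower and 33.3% higher. Groups did not overlap for 10 of 10 receptors, against 43.2% of tested genes without overlap in this direction. The fall in mean FPKM was at least 2-fold for 8 of the 9, and for 15.1% of tested genes. The median log2 difference of the 9 was -1.79, and that of all tested genes was -0.06. The summed FPKM of the 10 receptors was 316 ± 1.49 in siControl and 94.5 ± 1.43 in siUSP32 (SD, n = 3 each), a 3.35-fold fall. In bulk RNA, fewer cells that express a receptor and less of its RNA per cell cannot be told apart.

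**Figure D1:**
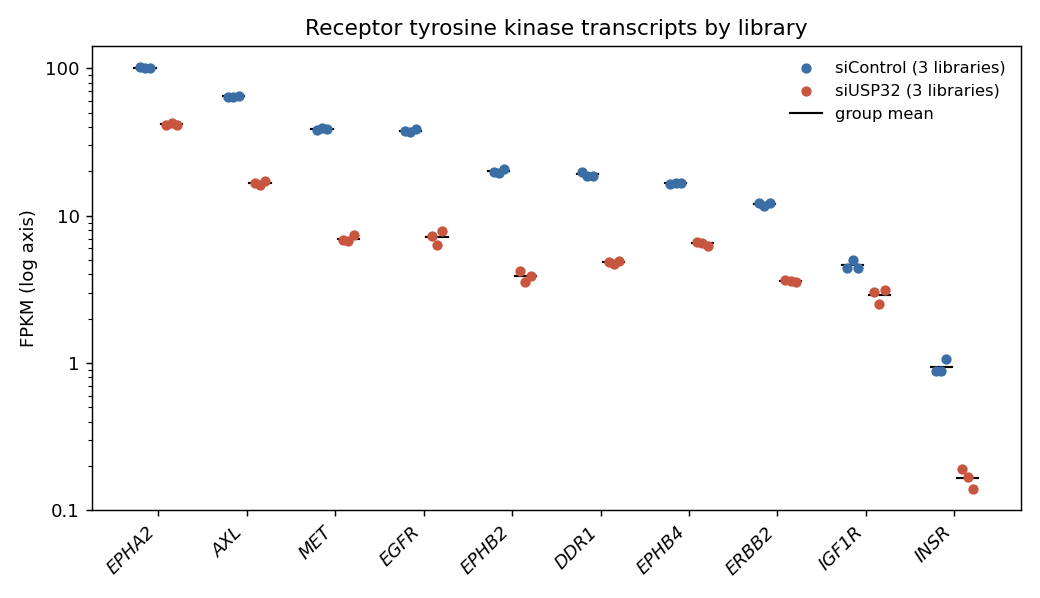
FPKM of the 10 receptors (log axis) in each library, ordered by the siControl mean. Points are single libraries, blue for siControl and red for siUSP32, and black bars are group means. The red points of each receptor lie below its blue points, from EPHA2 (101 to 41.7 FPKM in the mean) to INSR (0.940 to 0.167).

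The ERBB family receptors bind EGF-like growth factors, except that ERBB2 has no known ligand and acts as a partner of the others. EGFR (Entrez 1956, chromosome 7, 55019021 to 55211628, plus strand, here and below in GRCh38 with GENCODE 29) was at 37.40, 36.95 and 38.92 FPKM in siControl and at 7.26, 6.31 and 7.92 FPKM in siUSP32. The lowest siControl library was thus far above the highest siUSP32 library. The mean fell 5.27-fold, with a log2 difference of -2.25 ± 0.08 (SE, limma adjusted p = 1.84e-08). ERBB2 (Entrez 2064, chromosome 17, 39687914 to 39730426, plus strand), the gene of HER2, was at 12.2, 11.72 and 12.18 FPKM in siControl, a level below that of 7 other receptors. In siUSP32 it was at 3.64, 3.63 and 3.54 FPKM, which is 3.34-fold lower. Its log2 difference was -1.50 ± 0.06 (limma adjusted p = 4.12e-08). The EGFR to ERBB2 ratio of FPKM lay between 3.07 and 3.20 in siControl libraries and between 1.74 and 2.24 in siUSP32 libraries, without overlap. The change in the log2 ratio was -0.66 ± 0.11 (SE), with an exact permutation p = 0.1, 2-sided, the smallest that 3 against 3 libraries allow (0.1 after adjustment over 5 pairs). An antisense gene lies at the EGFR locus, and since the handling of strand is not given, reads of the pair may not be separated.

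MET, the receptor of hepatocyte growth factor, and AXL, the receptor of GAS6, were among the most abundant of the 10. MET (Entrez 4233, chromosome 7, 116672390 to 116798386, plus strand) was at 38.05, 39.40 and 39.05 FPKM in siControl and at 6.90, 6.71 and 7.41 FPKM in siUSP32. Its 5.54-fold fall gave the largest log2 difference of the tested receptors, -2.32 ± 0.06 (limma adjusted p = 3.29e-09), and 1.31% of all tested genes had a lower one. No siControl library of MET came near a siUSP32 library. AXL (Entrez 558, chromosome 19, 41219203 to 41261766, plus strand) was at 63.83, 64.33 and 65.40 FPKM in siControl and at 16.74, 16.21 and 17.17 FPKM in siUSP32. The groups did not overlap, and the SD within each was 0.802 FPKM or less. The mean fell 3.86-fold, with a log2 difference of -1.89 ± 0.05 (limma adjusted p = 4.14e-09).

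The EPH receptors bind ephrins, which are themselves anchored in the membrane of neighbouring cells. EPHA2 (Entrez 1969, chromosome 1, 16124337 to 16156087, minus strand) had the highest level of the 10 in both groups, at 102.26, 101.51 and 100.66 FPKM in siControl and 41.46, 42.46 and 41.14 FPKM in siUSP32. Its fall of 2.43-fold was among the smaller ones (log2 difference -1.26 ± 0.04, limma adjusted p = 2.07e-08). EPHB2 (Entrez 2048, chromosome 1, 22710839 to 22921500, plus strand) was at 19.95, 19.65 and 20.63 FPKM in siControl and at 4.24, 3.58 and 3.9 FPKM in siUSP32. The mean was 5.14-fold lower, and the log2 difference -2.10 ± 0.07 (limma adjusted p = 1.41e-08). EPHB4 (Entrez 2050, chromosome 7, 100802565 to 100827521, minus strand), known as the receptor of ephrin-B2, started from a similar level of 16.55, 16.77 and 16.72 FPKM. It remained at 6.66, 6.57 and 6.26 FPKM in siUSP32, 2.57-fold lower, with a log2 difference of -1.24 ± 0.06 (limma adjusted p = 1.04e-07). The groups of each of the 3 EPH receptors were well apart.
The EPHB2 and EPHB4 pair changed order. EPHB2 exceeded EPHB4 in siControl, at ratios of 1.17 to 1.23, and lay below it in siUSP32, at 0.545 to 0.637, a change of -1.0 ± 0.07 in the log2 ratio. EPHA2 to EPHB2 ratios lay between 4.88 and 5.17 in siControl and between 9.78 and 11.9 in siUSP32 libraries, a change of 1.08 ± 0.09. EPHA2 to EPHB4 had ratios of 6.02 to 6.18 and 6.23 to 6.57, with a change of 0.08 ± 0.03, which was -0.03 with 1 added to each FPKM. For each of the 3 EPH pairs the exact permutation test gave p = 0.1, and 0.1 after adjustment over the 5 pairs. Multiplying a library by a factor leaves such ratios as they are, but quantile normalization and the length correction do not. For EPHA2 and EPHB4 taken singly, quantile normalization gave log2 differences of -1.43 and -1.03, and the length correction -1.06 and -0.99, so that EPHA2 was the lower of the pair under both.

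IGF1R and INSR are closely related receptors, of insulin-like growth factors and of insulin, that form dimers joined by disulfide bonds. IGF1R (Entrez 3480, chromosome 15, 98648539 to 98964530, plus strand) was at 4.43, 5.0 and 4.41 FPKM in siControl and at 3.02, 2.52 and 3.13 FPKM in siUSP32. The fall of 1.6-fold was the smallest of the 10 (log2 difference -0.53 ± 0.08, limma adjusted p = 3.73e-04), though the groups did not overlap. This call was lost with quantile normalization and with a correction for transcript length, given below. INSR (Entrez 3643, chromosome 19, 7112255 to 7294034, minus strand) was listed at 0.88, 0.88 and 1.06 FPKM in siControl and at 0.19, 0.17 and 0.14 FPKM in siUSP32, a mean 5.64-fold lower from a low level. The groups did not overlap. With no filter on low values it was called lower among 17639 genes, of which 33.8% were lower (log2 difference -0.73 ± 0.05, limma adjusted p = 1.85e-05). The added 1 FPKM shrinks that difference for so low a gene. The INSR to IGF1R ratio was 0.176 to 0.240 in siControl libraries and 0.0447 to 0.0675 in siUSP32 libraries, a log2 change of -1.82 ± 0.23 (exact permutation p = 0.1, adjusted 0.1).

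DDR1, a receptor of fibrillar and basement membrane collagens rather than of a soluble growth factor, was at the level of EPHB2 in siControl. DDR1 (Entrez 780, chromosome 6, 30876421 to 30900156, plus strand) was at 19.9, 18.76 and 18.73 FPKM in siControl and at 4.87, 4.69 and 4.95 FPKM in siUSP32. Its mean fell 3.96-fold (log2 difference -1.79 ± 0.06, limma adjusted p = 1.55e-08). The exact permutation test gave p = 0.1 for each of the 10 receptors taken singly.

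The order of the levels shifted with these unequal falls. In siControl it ran EPHA2, AXL, MET, EGFR, EPHB2, DDR1, EPHB4, ERBB2, IGF1R and INSR, and the libraries of MET and EGFR overlapped, as did those of EPHB2 and DDR1. In siUSP32 it ran EPHA2, AXL, EGFR, MET, EPHB4, DDR1, EPHB2, ERBB2, IGF1R and INSR, with overlap between EGFR and MET, between EGFR and EPHB4, and between EPHB2 and ERBB2. The share of EPHA2 in the summed FPKM of the 10 was 32.1% ± 0.384 in siControl and 44.1% ± 1.41 in siUSP32 (SD, n = 3 each). MET went from 12.3% ± 0.224 to 7.42% ± 0.294 and EGFR from 11.9% ± 0.270 to 7.58% ± 0.748. AXL went from 20.4% ± 0.174 to 17.7% ± 0.260, and the share of ERBB2 was 3.81% ± 0.0766 and 3.82% ± 0.104. The shares of a library add to a whole, so they show that receptors changed unequally and not which of them changed.

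Differences depended on transcript length in these libraries, and 8 receptors lay well below the median of genes of like length. With tested genes in 10 bins by length, the median log2 difference declined from 0.54 for the shortest transcripts to -0.53 for the longest, and the receptors' GENCODE transcripts span 3677 bases (EPHB2) to 12235 bases (IGF1R). After a loess correction of each library for transcript length, 8 of the 9 receptors remained called as lower, where 35.1% of genes were lower, with a median of -1.59 against 0.01 over all genes. The corrected log2 differences were -1.88 for MET, -1.71 for EGFR, -1.94 for EPHB2, -1.59 for AXL, -1.59 for DDR1, -1.23 for ERBB2, -1.06 for EPHA2 and -0.99 for EPHB4. That of IGF1R was 0.05 (limma adjusted p = 0.502). Of the genes with a transcript between 20% shorter and 25% longer than that of IGF1R, 57.5% had a lower log2 difference, while this share was 2.36% for MET, 4.42% for EGFR and at most 11.7% for the other receptors tested. Quantile normalization also ended the call of IGF1R, at -0.14 (limma adjusted p = 0.118). Its adjusted p ran from 8.31e-05 to 0.502 over 14 alternatives. The other 8 tested receptors kept their calls in all 15 alternatives run. Rescaling the libraries left the receptors far below the median of all genes. With TPM 9 of 9 were lower (62.1% of all genes lower, 14.3% higher), with a median of -2.16 against -0.39. With median-ratio scaling 9 of 9 were lower (34.7% lower, 40.9% higher), and their median was -1.66 against 0.06. After quantile normalization 8 of 9 were lower (30.0% lower, 43.8% higher), with medians of -1.56 and 0.10. At a minimum of 5 FPKM 8 of 8 were lower, with 35.5% of all genes.

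**Figure D2:**
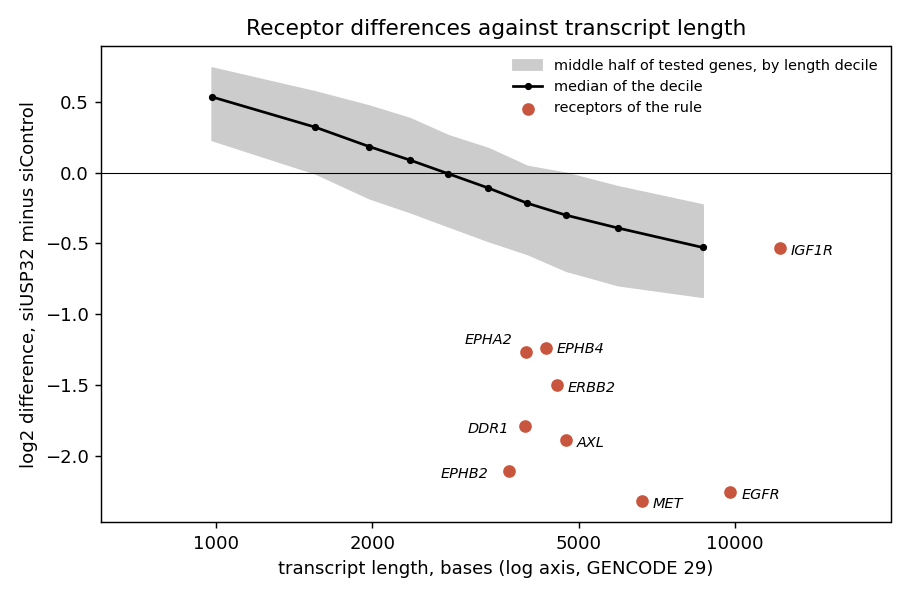
Log2 difference of the 9 tested receptors against the length of the GENCODE transcript (log axis). The black line joins the medians of tested genes in 10 bins by length and the grey band runs from the lower to the upper quartile of each bin. The line and band end at 8676 bases, the median length of the longest bin, and EGFR and IGF1R lie to the right of them. IGF1R, at 12235 bases, lies at the level of that bin's median (-0.53). The other 8 receptors lie below the lower quartile of their length bins.

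**Figure D3:**
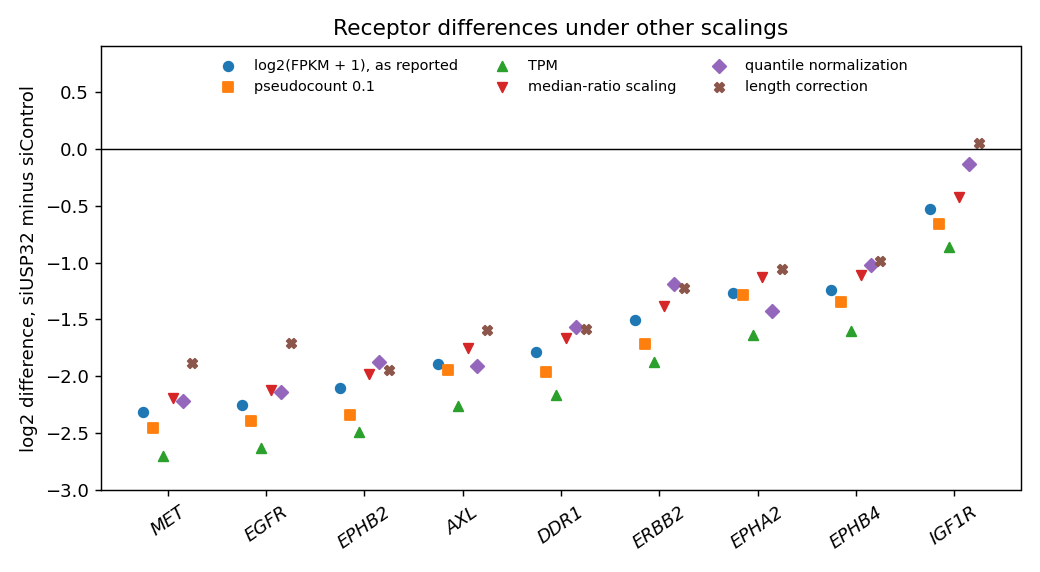
Log2 difference, siUSP32 minus siControl, of the 9 tested receptors as reported and under 5 other scalings or transformations. Each symbol is one setting. For 8 receptors every symbol lies at or below that of EPHB4 with the length correction (-0.99), and IGF1R spans -0.86 (TPM) to 0.05 (length correction).

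Cell-surface proteins carry hydrophobic segments, so the receptors were also set beside other genes whose proteins have one. Each of the 10 proteins, translated from GENCODE coding sequences, held 1 or 2 hydrophobic segments, defined as 19-residue windows whose Kyte-Doolittle hydropathy averaged 1.6 or more, which signal peptides and membrane spans usually contain. The 3880 tested genes with such a segment had a median log2 difference of -0.43, with 62.6% lower, and the 8079 without one had a median of 0.06, with 31.1% lower. The receptor median of -1.79 lay below both medians. Of genes with a segment, 9.33% lay below it, and of genes without one 0.619%. The part of this class difference in the receptors' falls was not tested.

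The other receptor tyrosine kinases were lower as well. Of the 48 that are not among the 10, 16 reached the minimum for testing, and 16 of 16 fell, with a median log2 difference of -1.12, against 41.3% lower among all tested genes and 62.6% among those with a hydrophobic segment. EPHA4, another ephrin receptor, fell 4.58-fold, from 10.3 ± 0.261 to 2.24 ± 0.220 FPKM (limma adjusted p = 4.61e-08). LMTK2, a kinase of the lemur family, was 5.83-fold lower, at 4.34 ± 0.313 against 0.743 ± 0.0115 FPKM (limma adjusted p = 8.69e-08). The smallest differences were those of ERBB3 and EPHA10, at -0.45 and -0.18. ERBB3 lost its call after quantile normalization (-0.08) and length correction (-0.06). That of EPHA10 was 0.20 and called higher after quantile normalization, and was not called with the length correction (0.18). Quantile normalization left 14 of the 16 lower, and median-ratio scaling or adding 0.1 in place of 1 FPKM left 15. The length correction left 13, and TYRO3, named after values were seen, was then not called either (-0.09, limma adjusted p = 0.359). Blocking on replicate number gave 15 of 16 lower, as did the fits that left out any 1 library other than siControl library 1, and EPHA10 was then the gene not called. The most abundant of the 16, RYK and EPHB6, both with a kinase domain thought to be inactive, went from 37.8 to 17.2 and from 35.5 to 14.2 FPKM. They were picked for their level after values were seen, as were ERBB3 and EPHA10 for theirs. The remaining 32 lay below the minimum, at a mean of at most 0.917 FPKM, and 28 of them had a lower and 3 a higher mean in siUSP32.

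**Figure D4:**
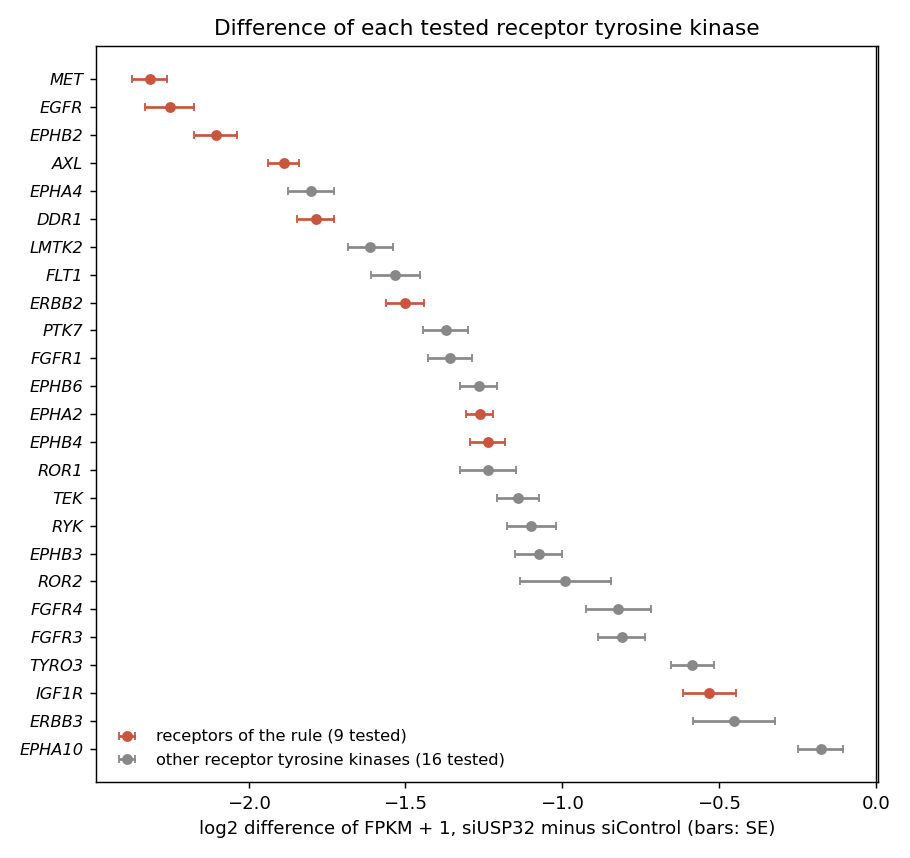
Log2 difference of FPKM + 1, siUSP32 minus siControl, for the 9 tested receptors (red) and the 16 other tested receptor tyrosine kinases (grey). Points are limma estimates and bars their standard errors. All 25 points lie below 0, from MET at -2.32 to EPHA10 at -0.18.

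Ligands of the 10 receptors or of their relatives were mostly lower. Among the 16 tested, 13 were called lower and 1 higher, and 2 missed the threshold (median -0.76). Of all tested genes 41.3% were lower and 33.3% higher. Among those with a hydrophobic segment, as all 16 have, 62.6% were lower and 18.6% higher. AREG, which encodes amphiregulin, an EGFR ligand and a known YAP target, rose 2.38-fold, from 22.26, 21.91 and 23.81 to 56.00, 55.20 and 50.67 FPKM (log2 difference 1.22 ± 0.06, limma adjusted p = 1.56e-07). Its groups did not overlap, and the rise was 0.86 with TPM and 0.81 with the length correction. PROS1, the gene of protein S, known as a ligand of the AXL relatives TYRO3 and MERTK, fell 12.4-fold, from 14.8 ± 0.828 to 1.19 ± 0.0603 FPKM (limma adjusted p = 3.16e-09). EFNB3, an ephrin, fell 3.64-fold, from 14.2 ± 0.469 to 3.89 ± 0.134 FPKM (limma adjusted p = 3.13e-08).
Further ligands are given by pathway, chosen after their values were seen. For EGFR, EREG (epiregulin) went from 44.3 ± 1.55 to 23.5 ± 3.11 FPKM and TGFA from 6.98 ± 0.335 to 4.90 ± 0.638 FPKM, both called, while HBEGF was at 7.84 ± 0.631 and 8.91 ± 0.488 FPKM and was not (limma adjusted p = 0.0692), except as higher with quantile normalization or median-ratio scaling. TGFA lost its call under quantile normalization. GAS6, the AXL ligand, fell 2.53-fold. IGF2, the most abundant ligand of the list in siControl but not in siUSP32, fell 3.72-fold, from 139 ± 2.83 to 37.4 ± 7.44 FPKM. EFNB1 and EFNB2, ligands of the EPHB receptors, fell 3.15-fold and 4.2-fold. EFNA1, a ligand of EPHA2, fell by less, from 60.04 ± 1.06 to 46.4 ± 2.52 FPKM.

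Most genes listed for the processing of receptors and ligands were lower as well. Beside proteases, the list holds RHBDF1 and RHBDF2. ADAM proteases shed EGFR ligands and the outer parts of receptors such as MET and AXL, and proprotein convertases cleave the precursors of MET, IGF1R and INSR. Of 10 tested genes 9 fell and 1 rose (median -1.47), with 41.3% of all tested genes lower and 33.3% higher. Among tested genes with a hydrophobic segment, as 9 of the 10 have, 62.6% were lower and 18.6% higher. ADAM9 fell 6.84-fold, from 62.3 ± 3.18 to 9.11 ± 0.820 FPKM (limma adjusted p = 5.31e-09). The convertase gene PCSK5 fell 7.88-fold, from 15.8 ± 0.252 to 2.0 ± 0.182 FPKM (limma adjusted p = 5.55e-09). Chosen after their values were seen, ADAM10 fell 10.9-fold, ADAM17, the main sheddase of EGFR ligands, 7.16-fold and FURIN 3.58-fold. ADAM15 went from 17.7 ± 0.441 to 20.3 ± 0.512 FPKM, a call as higher (log2 difference 0.19, limma adjusted p = 0.00984) that turned into one as lower with TPM (-0.17) and was lost without siControl library 3 (0.17, limma adjusted p = 0.0523).

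Membrane regulators and co-receptors all fell, 16 of 16, with a median of -1.49 (15 of 16 under quantile normalization). Among all tested genes 41.3% were lower, and among those with a hydrophobic segment, as all 16 have, 62.6%. NRP1, a co-receptor of several growth factors, fell 7.77-fold, from 35.3 ± 0.989 to 4.55 ± 0.361 FPKM (limma adjusted p = 3.16e-09). IGF2R, which clears IGF2 and carries hydrolases to lysosomes, fell 14.7-fold, from 9.13 ± 0.172 to 0.620 ± 0.0800 FPKM (limma adjusted p = 4.20e-09). Chosen after values were seen, LRIG1, a transmembrane inhibitor of ERBB receptors, fell 3.76-fold, and PTPRF, a receptor-type tyrosine phosphatase, 5.88-fold. CD44, a co-receptor of MET in some of its splice forms, fell 3.15-fold, from 425 ± 1.89 to 135 ± 3.83 FPKM.

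Cytosolic partners of the receptors included genes called in both directions. Among 33 tested adaptors and effectors, 18 (54.5%) were lower, 7 (21.2%) higher and 8 not called (median -0.29). Of all tested genes 41.3% were lower and 33.3% higher. A hydrophobic segment was in 2 of the 33 proteins, and of tested genes without one 31.1% were lower and 40.5% higher (median 0.06). Their split depended on scaling, as did that of all genes. With TPM 26 (78.8%) were lower and 4 (12.1%) higher, beside 62.1% and 14.3% of all genes. After quantile normalization these were 14 (42.4%) and 7 (21.2%), beside 30.0% and 43.8%. With the length correction they were 11 (33.3%) and 10 (30.3%), beside 35.1% and 35.1%. AKT1, a kinase downstream of PI3K, went up from 63.4 ± 1.57 to 101 ± 1.24 FPKM (limma adjusted p = 1.41e-06). So did GRB10, an adaptor that restrains INSR and IGF1R, 1.70-fold, from 9.50 ± 0.181 to 16.1 ± 1.40 FPKM (limma adjusted p = 1.79e-05). IRS1, the docking protein of INSR and IGF1R, fell from 9.17 ± 0.250 to 4.21 ± 0.299 FPKM (limma adjusted p = 1.86e-06). FRS2, the docking protein of FGF receptors, fell 2.88-fold, from 6.89 ± 0.159 to 2.39 ± 0.388 FPKM (limma adjusted p = 2.58e-06). The adaptor genes GRB2 and SHC1, which link most of these receptors to RAS and were named after their values were seen, were not called, at log2 differences of -0.0034 (limma adjusted p = 0.954) and 0.02 (limma adjusted p = 0.747). These calls depended on scaling. Under TPM both were lower, GRB2 at -0.37 and SHC1 at -0.34, and after length correction GRB2 was higher (0.17).
Among 19 tested cytosolic downregulators and endocytic sorting genes, 10 (52.6%) were lower, 7 (36.8%) higher and 2 not called (median -0.23). Of all tested genes 41.3% were lower and 33.3% higher. A hydrophobic segment was in 2 of the 19 proteins, and of tested genes without one 31.1% were lower and 40.5% higher. With TPM 13 (68.4%) were lower and 4 (21.1%) higher (median -0.60), beside 62.1% and 14.3% of all genes. With the length correction these were 8 (42.1%) and 9 (47.4%, median 0.11), beside 35.1% and 35.1%. CBL, the ubiquitin ligase that marks EGFR and MET for degradation, fell 4.82-fold, from 3.74 ± 0.111 to 0.777 ± 0.255 FPKM (limma adjusted p = 2.63e-06). SOCS5, of a family that restrains cytokine and EGFR signalling, fell 1.82-fold (limma adjusted p = 1.45e-05). The ESCRT-I sorting subunit gene TSG101 was higher, at 83.8 ± 0.576 against 124 ± 0.993 FPKM (limma adjusted p = 2.88e-06). PTPN2, a tyrosine phosphatase, was 1.55-fold higher (limma adjusted p = 6.70e-06). The difference between the receptors and these cytosolic lists is given by counts and medians and was not itself tested.

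**Figure D5:**
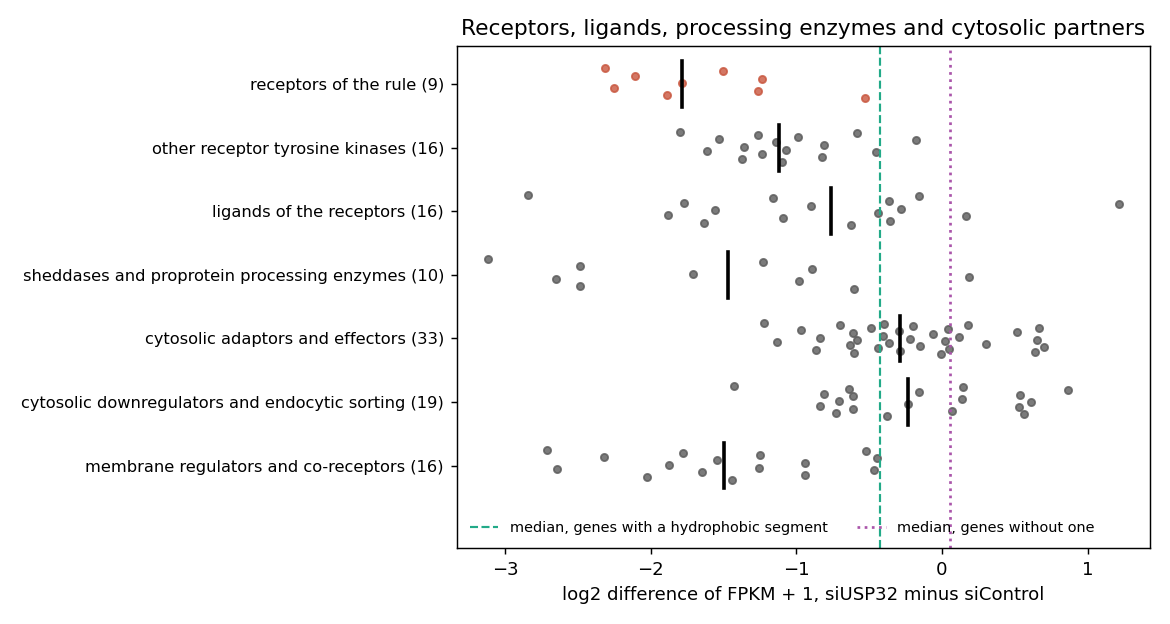
Log2 differences, siUSP32 minus siControl, of the tested genes of each list (number tested in brackets). Each point is a gene, offset vertically only for legibility, and the black bar is the median of its list. The membrane and secreted lists have medians between -1.79 and -0.76, and both cytosolic lists -0.29 and -0.23. Dashed and dotted lines mark the medians of all tested genes with (-0.43) and without (0.06) a hydrophobic segment.

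Among all tested genes outside the 10, those whose 6 library values lay closest to the pattern of EGFR, taken relative to the siControl mean, were TMEM200A, P3H2 and ADGRA3. Their root mean square distances were 0.02, 0.03 and 0.03 on the log2(FPKM + 1) scale over 6 libraries. TMEM200A went from 50.4 ± 1.44 to 9.97 ± 1.12 FPKM and ADGRA3, an adhesion receptor gene, from 40.1 ± 1.48 to 7.86 ± 0.913 FPKM. Among those closest to MET were ATP6AP2 and CELSR2, and ATP6AP2, an accessory subunit of the vacuolar proton pump, went from 141 ± 2.58 to 27.1 ± 1.78 FPKM. CELSR2 went from 5.62 ± 0.240 to 0.310 ± 0.0755 FPKM, an 18.1-fold fall against 5.54-fold for MET. The added 1 FPKM shrinks its log2 difference to -2.34, near that of MET. Closest to IGF1R were AVL9, PLEKHG4 and CYB5D1, and AVL9 went from 6.13 ± 0.315 to 3.97 ± 0.461 FPKM. Like IGF1R, AVL9 and PLEKHG4 were no longer called under quantile normalization or the length correction.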

How the data were processed

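RNA of MDA-MB-231 cells was sequenced in 6 libraries, 3 siControl and 3 siUSP32. The authors deposited FPKM with 2 decimals, per the file headers. The submitters' processing notes name GRCh38.p13. No aligner, counter, annotation or strand setting is given in the sources used here. Depth is unknown. Single-fragment steps in 136 low genes, accepted within a tolerance of 0.2, differed by factors of 0.978 to 1.02 between libraries, a range that the tolerance bounds. Library pairs within a group shared 0.450% to 0.783% identical values.

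Genes whose FPKM averaged 1 or more (12003) were fitted as log2(FPKM + 1), which understates changes of low genes, with limma 3.58.1 in R 4.3.3 (mean-variance trend, 2-sided, Benjamini-Hochberg adjusted p under 0.05). The fit was tested on simulated data. Folds are ratios of mean FPKM. Pairs of receptors were compared by exact permutation of log2 ratios. Positions, lengths and translated proteins came from GENCODE 29, through Entrez identifiers, and 11959 tested genes had a length. No protein table was given, so translation was chosen after seeing the data, as was the comparison with genes of like length. The length correction was a robust loess curve (span 0.5) per library.

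The members and the 6 gene lists were chosen with earlier results of these data known. Named genes were the 10 receptors, USP32, up to 2 called rises and 2 called falls per list with the smallest adjusted p, and the 3 genes nearest in pattern to EGFR, MET (the largest fall) and IGF1R (the smallest); others are said to be chosen after their values were seen. A gene that this rule names is not reported here.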

Additional observations from a re-analysis of the deposited data

How the results depend on the processing

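The falls of MET, EGFR, EPHB2, AXL, DDR1, ERBB2, EPHA2, EPHB4 and USP32 kept their direction and their call in every alternative in which they were tested; USP32 and IGF1R were under a minimum of 5 FPKM and not tested there. IGF1R was -0.14 under quantile normalization and, with length correction, 0.051. Rescaling moved the median of all genes from -0.06 to -0.39 with TPM and to 0.10 after quantile normalization. Over all genes, 1716 were higher and 7453 lower with TPM, and 3068 were lower at a minimum of 5 FPKM, against 4001 higher and 4956 lower as reported. Other receptor tyrosine kinases that fell were 27 of 48 unfiltered and 4 of 4 at that minimum, beside 33.8% and 35.5% of all genes. After quantile normalization 1 of 16 rose, beside 43.8%. Ligands that rose were 2 of 16 with median-ratio scaling and with quantile normalization, beside 40.9% and 43.8% of all genes. Processing genes that rose were 0 of 10 with TPM, where ADAM15 was -0.17, beside 14.3% of all genes. Over the fits without 1 library, 0 to 1 processing genes rose. Adaptors that rose were 4 of 33 (12.1%) with TPM and 12 (36.4%) with median-ratio scaling, beside 14.3% and 40.9% of all genes. With the length correction 11 adaptors (33.3%) fell, beside 35.1% of all genes. Downregulators that rose were 4 of 19 (21.1%) with TPM, beside 14.3% of all genes. The log2 change of the EPHA2 to EPHB4 ratio was -0.025 with 1 FPKM added. At a hydropathy threshold of 1.8 the median of genes with a segment was -0.57. The cause of these changes was not tested. Replicate numbers do not pair the libraries: deviations of same-numbered libraries correlated at -0.0766, 0.0706 and 0.119 across genes, and with the replicate number as a block 4016 genes were higher and 4979 lower. The FPKM come without read counts, so the counting error of low genes such as INSR is unknown.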
